A study of Mus musculus with 2 samples.

Results

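Wfdc17, Wfdc18 and Wfdc21 are 3 of the 32285 genes counted in cells of the healing mouse calvarial defect, and 3 of the 23 genes of a list of proteins with a WFDC domain. They were taken by gene symbol, and they were chosen by the UMI counts of Wfdc17, which differed most between the GA and control libraries in neutrophils. That difference is therefore given as a description, and nothing rests on it. Single-cell RNA-seq was performed on 1 GA library and 1 control library from C57BL/6 mice (C57BL/6J in the methods of the study) of 2 months, each pooled from the defect tissue of 5 mice. The control group received 100 µL of vehicle (10% DMSO) by intraperitoneal injection, and the GA group received gambogic amide, a small molecule agonist of the nerve growth factor receptor TrkA, in the same vehicle. Both groups carried a defect of 1.8 mm in the frontal bone, injections began 24 h before injury, and cells were taken at day 7. The labels give 1.2 mg/kg daily for 1 week, while the methods of the study give 2 mg/kg for 4 weeks. With 1 library per group there was no spread between animals to test against, so no p-value is given. Every interval is an exact 95% interval that covers counting error only, of UMIs or of cells. Intervals on shares of cells take the cells of a pooled library as independent and cover no spread between animals.

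WFDC proteins are small and secreted, and they share a compact fold, first described in whey acidic protein, that is held together by disulfide bonds between cysteines. Several of them inhibit serine proteases. The best known is Slpi, which inhibits the elastase and cathepsin G that neutrophils store in their granules. Wfdc17 is also called Amwap, for its expression in activated macrophages and microglia. Wfdc18 is also called Expi or WDNM1, and Wfdc21 carries the name Wdnm1-like. Neutrophils make granule proteins as dividing and immature cells in the marrow and switch to receptors and inflammatory genes as they mature.

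All 3 genes lie on the plus strand of chromosome 11 (GRCm38, GENCODE vM21). Wfdc17 (ENSMUSG00000069792) spans chr11:83703991-83706268, Wfdc18 (ENSMUSG00000000983) spans chr11:83709015-83711348, and Wfdc21 (ENSMUSG00000051748) spans chr11:83746940-83752642. Each main transcript has 3 exons, with the coding sequence in exons 1 and 2 and a last exon made up of 3′ UTR. The transcripts are 533, 521 and 434 bases long. The coding sequences are shown because they set out how alike the members are, with every cysteine codon in capitals:
Wfdc17: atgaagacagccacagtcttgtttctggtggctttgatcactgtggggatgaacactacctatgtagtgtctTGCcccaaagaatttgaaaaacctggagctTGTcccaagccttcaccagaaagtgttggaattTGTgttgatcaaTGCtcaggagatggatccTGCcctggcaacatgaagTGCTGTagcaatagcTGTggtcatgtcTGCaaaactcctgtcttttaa
Wfdc18: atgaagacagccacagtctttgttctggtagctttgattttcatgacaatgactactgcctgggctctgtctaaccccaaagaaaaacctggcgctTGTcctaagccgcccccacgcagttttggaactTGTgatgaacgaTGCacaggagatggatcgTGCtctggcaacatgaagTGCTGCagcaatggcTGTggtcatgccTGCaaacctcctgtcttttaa
Wfdc21: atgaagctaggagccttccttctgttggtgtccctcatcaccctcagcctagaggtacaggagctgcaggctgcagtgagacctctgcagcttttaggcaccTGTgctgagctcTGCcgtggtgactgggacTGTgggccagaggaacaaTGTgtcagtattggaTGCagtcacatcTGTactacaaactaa

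Wfdc17 holds 9 cysteine codons, Wfdc18 holds 8 and Wfdc21 holds 6. Wfdc17 and Wfdc18 form a close pair, identical at 81.8% of 225 aligned coding bases, whereas Wfdc17 and Wfdc21 are identical at 61.9% of 189. The counting here reads the 3′ end of transcripts. Over the last exon, Wfdc17 and Wfdc18 are identical at 84.2% of 184 aligned bases, and their longest identical run is 17 bases. Wfdc17 and Wfdc21 share no run longer than 9 bases there.

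Upstream sequence was available for Wfdc17 and Wfdc18 (RefSeq, GRCm38.p6) and is shown because these neighbours were seen in the same cells. The stretches end before the first annotated start of either gene model, chr11:83703806-83703990 for Wfdc17 and chr11:83708754-83709003 for Wfdc18, with any TATAAA in capitals:
Wfdc17: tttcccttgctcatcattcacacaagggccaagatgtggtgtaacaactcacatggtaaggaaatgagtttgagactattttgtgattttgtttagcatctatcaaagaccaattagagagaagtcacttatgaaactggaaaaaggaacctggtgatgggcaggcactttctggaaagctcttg
Wfdc18: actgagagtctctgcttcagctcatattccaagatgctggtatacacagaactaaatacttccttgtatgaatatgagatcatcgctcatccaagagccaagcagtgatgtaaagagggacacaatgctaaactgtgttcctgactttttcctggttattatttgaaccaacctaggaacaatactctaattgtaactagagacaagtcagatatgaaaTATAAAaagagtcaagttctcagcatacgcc

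Both full windows of 300 bases, from 250 before to 50 after the RefSeq start, were searched on both strands for 6 motifs. TATAAA was found in both windows and in 13.6% of all 32851 windows of that length. GAGGAA, the core that PU.1 binds, was found in the Wfdc17 window, on the minus strand, and in 28.3% of all windows. Both matches in the Wfdc17 window lay past the stretch shown, inside its annotated exon 1, and the match in the Wfdc18 window lay upstream. The letters of TTCNNNGAA (STAT, 8.30% of windows), TGANTCA (AP-1, 7.81%), TTGCNNAA (C/EBP, 10.8%) and the NF-kB motif (4.79%) were in neither window, and no 2 motifs overlapped.

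The matrices held 182949385 UMIs (unique molecular identifiers, 1 per captured transcript) for the GA library and 214993030 for the control library. After filters on depth, genes and mitochondrial share, and removal of predicted doublets, 8383 GA cells and 7569 control cells were kept, with medians of 10878 and 16560 UMIs. The libraries shared 15 barcodes among kept cells, and without the barcodes found in both, the Wfdc17 ratio given below for neutrophil-like cells was 4.04, as with them. Cells fell into 32 clusters, of which 30 were named from marker genes, and the members were left out of the clustering. Neutrophil-like cells numbered 4407 in the GA library and 2073 in the control library, and each of the 11 markers on their list was higher in them than in the other cells, such as Ly6g at 421 against 1.6 CPM (the UMIs of a gene per 1000000 UMIs of the same cells). Macrophage-like cells, monocytes included, numbered 1280 and 1767.

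The 3 genes differed in where they were read. Wfdc17 was read in macrophage-like and dendritic-like cells in both libraries, and in neutrophil-like cells chiefly in the GA library. Wfdc21 was a neutrophil transcript in both. Wfdc18 was scarce throughout, with 257 UMIs in all GA cells and 186 in all control cells. A UMI counts a transcript once whatever its length, so no length correction was made, and levels in CPM are compared between cells and not between genes.

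Among the 13 named classes, Wfdc17 was highest in macrophage-like cells in the GA library, at 1188 CPM (1175–1200). Neutrophil-like cells followed at 1062 CPM (1053–1072) and dendritic-like cells at 513 CPM (488–538). The neutrophil-like value joins all stages, and the mature cells described below read 3105 CPM in the GA library, above the macrophage-like cells. The order in the control library was macrophage-like cells at 1166 CPM (1155–1176), dendritic-like cells at 483 CPM (466–501) and neutrophil-like cells at 64.5 CPM (60.6–68.7). These leading classes were separated from their neighbours by more than counting error in both libraries. All 10 other classes lay below 40 CPM in both libraries, from 2.1 to 38.8 CPM in the GA library and from 1.5 to 19.9 CPM in the control library, and neighbours among them overlapped. B-like cells, which are not known to use the gene, read 10.4 CPM in the GA library and 8.5 CPM in the control library. They serve as a guide to stray transcripts, which holds only for cells of like depth. The cells of the 2 unnamed clusters, 197 and 212, read 337 and 194 CPM.

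**Figure D1:**
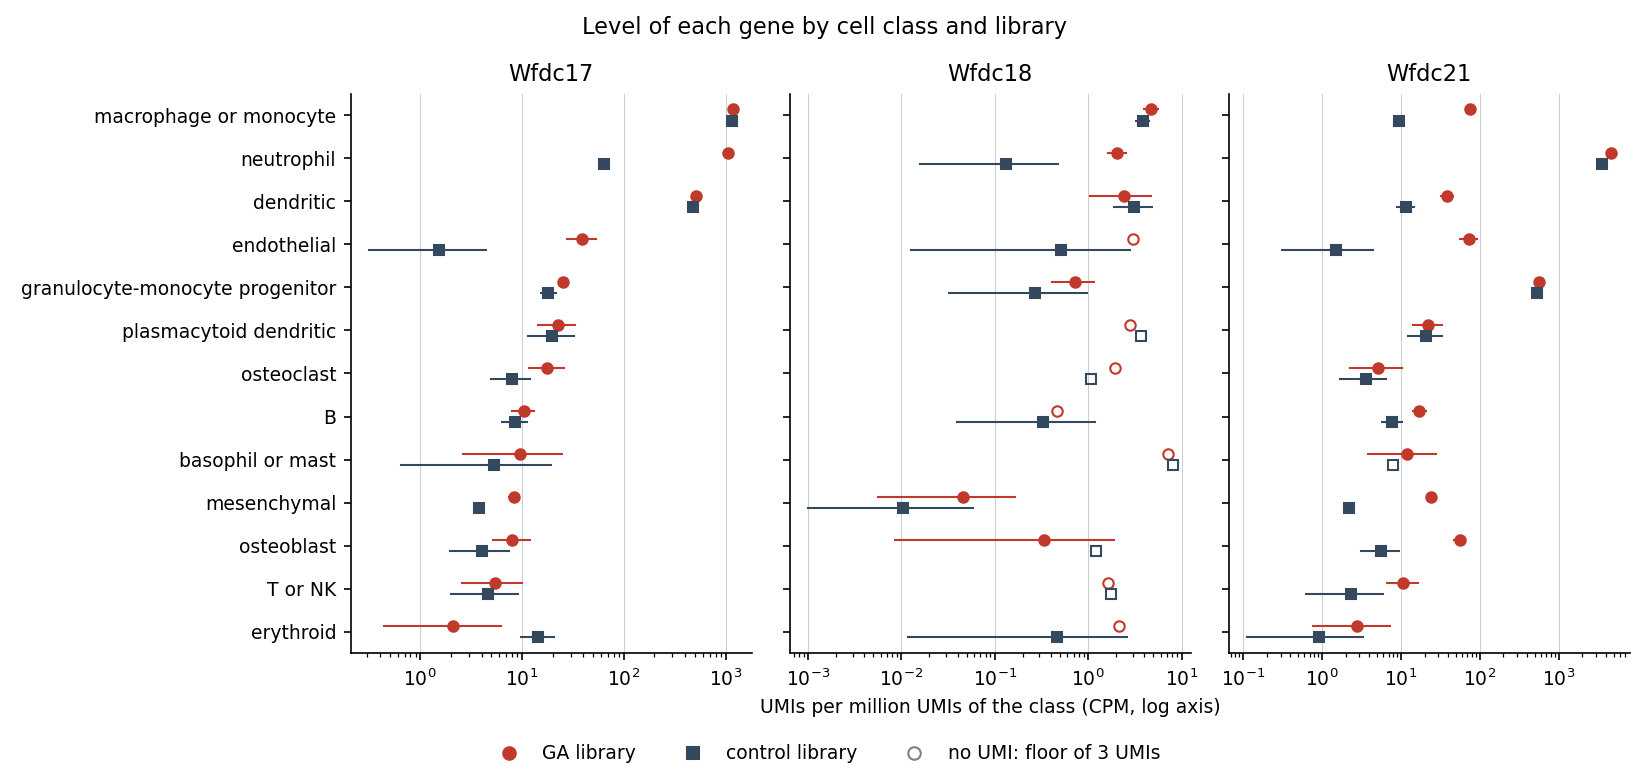
Levels of Wfdc17, Wfdc18 and Wfdc21 (CPM, log axis) in 13 classes of cells, with the GA library as red circles and the control library as dark squares, and exact 95% Poisson intervals as lines. Open symbols mark classes with no UMI, drawn at the level that 3 UMIs would give. Wfdc17 in neutrophil-like cells lies at 1062 CPM in the GA library and 64.5 CPM in the control library, while in macrophage-like cells the libraries lie at 1188 and 1166 CPM.

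Wfdc21 was highest in neutrophil-like cells in both libraries, at 4662 CPM (4641–4683) in the GA library and 3570 CPM (3540–3600) in the control library. Granulocyte-monocyte progenitor-like cells, the marrow cells from which neutrophils arise, followed at 572 CPM (562–582) and 536 CPM (520–553). Of all Wfdc21 UMIs, 92.1% lay in neutrophil-like cells in one library, GA, and 92.0% in the other, control. By contrast, they held 52.9% of the Wfdc17 UMIs of the GA library and 1.92% of those of the control library. Summed over all kept cells, Wfdc17 read 525 against 277 CPM and Wfdc21 read 1325 against 321 CPM. Of the 3 members, 1 (Wfdc21) was beyond 2-fold in that sum, where 10.1% of all genes were, and 3.2% were above 2-fold in the GA library. In such sums, more cells of a type and more transcripts per cell cannot be told apart, and this holds for every value over all cells.

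Wfdc18 read 4.7 CPM (4.0–5.6) in macrophage-like cells of the GA library and 3.8 CPM (3.3–4.5) in those of the control library. Dendritic-like cells held 8 and 19 UMIs, at 2.4 CPM (1.0–4.8) and 3.1 CPM (1.9–4.8), which overlapped the macrophage-like cells. In T or NK-like cells no Wfdc18 UMI was seen in either library, which allows a level of up to 2.00 and 2.15 CPM by the exact interval. The floor of 3 UMIs lies at 1.62 and 1.75 CPM there.

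In neutrophil-like cells, Wfdc17 stood first of 8158 genes with at least 200 UMIs when ordered by the log2 ratio of GA over control. It had 44378 GA UMIs against 990 control UMIs, a log2 ratio of 4.04 (3.95–4.13), or 16.5-fold. This is the value for which the genes were chosen. Next in order came Lipg, an endothelial-type lipase, at 2.92 (2.12–3.84), and Ifitm1, an interferon-induced membrane protein, at 2.62 (2.57–2.68). Ggt1, at 2.49, and Steap4, at 2.30, completed the 5 highest. The median of all 8158 genes was −0.14, so that Wfdc17 lay 4.18 above the median gene.

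In the same cells Wfdc18 had a ratio whose interval held that of Wfdc17, and Wfdc21 a lower one. Wfdc18 had 85 GA UMIs against 2 control UMIs, a log2 ratio of 3.96 (2.07–7.03). Wfdc21 was higher in the GA library by a log2 ratio of 0.39 (0.37–0.40), which placed it 145th. Of the 2 members with at least 200 UMIs, 1 was beyond 2-fold, and 1.12% of all genes were beyond 2-fold in either direction. At the other end of the order stood Mgp at −2.28, Clec4n, a C-type lectin, at −2.07, Tnc at −1.81, Cacnb2 at −1.76 and Hspa1a at −1.68. Mgp and Tnc are matrix genes of mesenchymal cells, and the 9 mesenchymal markers summed to 352 CPM in the GA and 522 CPM in the control neutrophil-like cells. Their part in these ratios was not tested.

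Wfdc17 and Wfdc21 had different courses over neutrophil maturity. Neutrophil-like cells were clustered again into 14 subclusters and staged by marker genes, which gave dividing precursors, immature cells, mature cells and a group that met no stage. Mature cells made up 54.7% of GA and 57.4% of control neutrophil-like cells. Wfdc17 in early cells was below the 10.4 and 8.5 CPM of B-like cells in each library. The dividing subclusters were deeper, at medians of 25742 and 38354 UMIs against 4727.5 to 13349 in the B-like clusters. CPM is therefore not a like measure of stray transcripts there, and background was not tested. Dividing precursors read 7.5 CPM (5.8–9.5) in the GA library and 3.7 CPM (2.1–6.1) in the control library, and immature cells read 8.9 CPM (7.1–10.9) and 4.3 CPM (2.3–7.2). The group with no stage read 194 CPM (185–203) and 8.4 CPM (5.4–12.3). Mature cells read 3105 CPM (3076–3135) and 186 CPM (174–198).

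Thus the step from immature to mature cells was seen in both libraries, from 8.9 to 3105 CPM and from 4.3 to 186 CPM. The ratio between the libraries was 4.06 (3.97–4.16) in mature cells, from 42508 and 936 UMIs, and 4.53 (3.97–5.17) in the group with no stage, from 1712 and 25 UMIs. Wfdc17 was first in order in each, of 5306 and 4176 genes. Both groups are parts of the neutrophils for which Wfdc17 was chosen, so these ratios and places describe that difference and add no support to it. In early cells the ratios were 1.02 (0.19–1.93) in dividing precursors and 1.04 (0.22–1.97) in immature cells, from 67 and 15 UMIs and from 91 and 14 UMIs, too few for the order of genes. The 5 cells with the most Wfdc17 held 62.7% of the UMIs of GA dividing precursors. Of all genes, 1.66% were beyond 2-fold in mature cells (0.528% above it in the GA library), 0.551% in the group with no stage, 0.572% in immature cells and 0.327% in dividing precursors. Of the members with at least 200 UMIs, Wfdc17 was beyond 2-fold in mature cells and in the group with no stage, and Wfdc21 in none of the 4 groups, although in mature cells it lay 1.07 above the median gene, which is past 2-fold on that scale.

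Wfdc21 ran the other way along the stages. It was highest in immature cells, at 6961 CPM (6910–7012) in the GA library and 5891 CPM (5808–5975) in the control library. Dividing precursors read 4925 and 4296 CPM, and the group with no stage read 5119 and 3896 CPM. Mature cells were lowest, at 2469 CPM (2443–2495) and 1288 CPM (1257–1320). The GA library was higher in each of the 4 groups, with log2 ratios of 0.20 (0.17–0.22) in dividing precursors, 0.24 (0.22–0.26) in immature cells, 0.39 (0.36–0.42) in the group with no stage and 0.94 (0.90–0.98) in mature cells. The ratio in mature cells placed Wfdc21 37th of 5306 genes. Over the mature subclusters it ran from 0.50 to 1.79, with the highest in the subcluster led by Clec4n and Egr3.

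**Figure D2:**
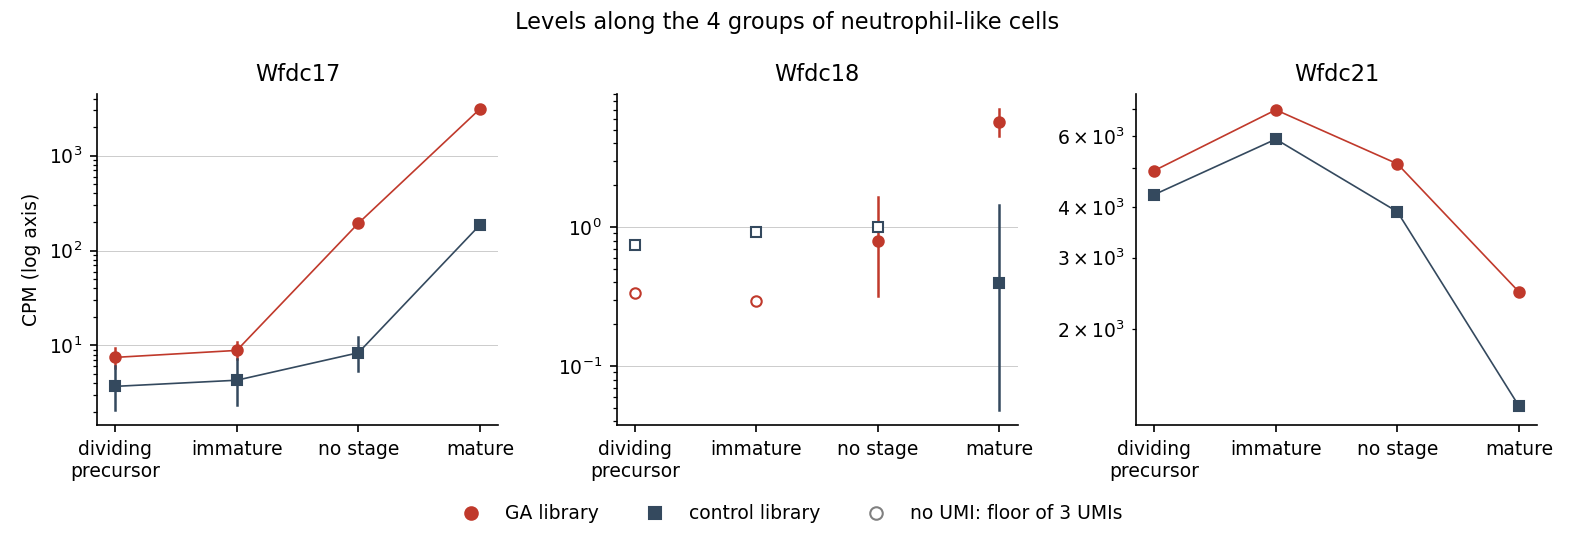
Levels (CPM, log axis) along dividing precursor, immature, unstaged and mature neutrophil-like cells, with the GA library in red, the control library in dark blue, exact 95% Poisson intervals as lines, and open symbols at the level of 3 UMIs where no UMI was read. Wfdc17 goes from 8.9 CPM in immature to 3105 CPM in mature cells of the GA library and from 4.3 to 186 CPM in the control library, while Wfdc21 is lowest in mature cells, at 2469 and 1288 CPM.

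Wfdc17 in the GA library was spread over most mature cells and was not carried by a few. It was detected in 87.2% of the 2412 mature cells, with a median of 11 UMIs per cell and quartiles of 3 and 25. In the control library it was detected in 22.3% of 1189 mature cells, with a median of 0. Depth differed, at medians of 5416 and 3977 UMIs, so each cell was thinned to 2000 UMIs, which left out 27 and 23 shallower cells. After thinning, 79.2% (77.5–80.8) of GA cells and 15.5% (13.5–17.7) of control cells held a UMI, and 25.9% and 0.858% held 10 or more. B-like cells, with median depths of 6463 and 5958 UMIs, held a UMI in 1.89% (0.946–3.35) and 1.57% (0.718–2.95) of cells after thinning.

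The same count in immature cells was 2.21% (1.27–3.56) in the GA library and 0.346% (0.00876–1.91) in the control library, at or near that of B-like cells. The immature cells were deeper, with subcluster medians from 10398.5 to 13712 UMIs, and whether these UMIs are background was not tested. In the group with no stage it was 16.5% and 1.85%, so that only the GA cells stood above the B-like cells. The control UMIs were more concentrated. The 5 mature cells with the most Wfdc17 UMIs held 16.5% of the total in the control library and 2.05% in the GA library, with up to 43 UMIs in a control cell and 259 in a GA cell. Without those cells in each library the log2 ratio was 4.29.

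**Figure D3:**
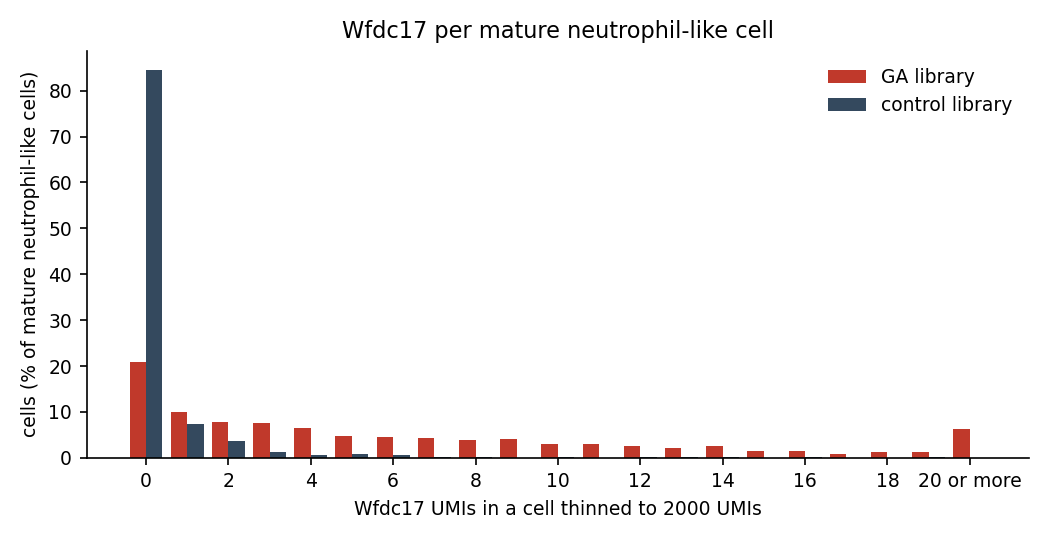
Share of mature neutrophil-like cells (y axis, percent) by the number of Wfdc17 UMIs left after thinning each cell to 2000 UMIs (x axis, with 20 or more in the last bar), for the GA library in red (2385 cells) and the control library in dark blue (1166 cells). No UMI was left in 20.8% of GA cells and 84.5% of control cells.

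Wfdc17 and Wfdc21 were detected together in 65.4% of thinned mature GA cells and 7.63% of thinned mature control cells. Wfdc21 without Wfdc17 was the most common state of control cells, at 53.4%, and was seen in 18.8% of GA cells. Neither gene was detected in 2.05% of GA cells and 31.0% of control cells. Over the 2385 thinned mature GA cells the rank correlation of the 2 genes was −0.11, so joint detection does not mean that their levels rose together. The shares given here describe the cells of the pooled libraries. Those of Wfdc17 add no support to the difference for which the genes were chosen.

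The log2 ratio of Wfdc17 ran from 3.84 to 6.08 over the 7 mature subclusters. These are parts of the same neutrophils for which Wfdc17 was chosen, so the values describe that difference and add no support to it. The subcluster led by Clec4n, Egr1 and the chemokines Ccl3 and Ccl4 had the highest level in both libraries, 4751 and 333 CPM. It was followed by the largest, led by Cxcl3, Gpr35 and Il1a, at 3831 and 249 CPM. A small subcluster led by the interferon-induced genes Cxcl10, Ifit1 and Rsad2, with 24 GA and 18 control cells, read 2827 and 82.3 CPM. The lowest mature subcluster, led by the stefin genes Stfa2, Stfa3 and Stfa1, which encode inhibitors of cysteine proteases, read 1027 and 15.2 CPM, the latter from 4 UMIs. Among the mature subclusters Wfdc21 was highest in the stefin-led one, at 4041 and 2863 CPM, and lowest in the interferon-led one, at 308 and 206 CPM. The smallest of the dividing subclusters, led by the azurophil granule genes Elane, Prtn3 and Mpo, held 2 GA and 6 control UMIs of Wfdc17.

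Transcripts of macrophages were looked for in the mature neutrophil-like cells, since macrophages carry Wfdc17 in both libraries. The 11 macrophage or monocyte markers summed to 572 CPM in GA cells and 511 CPM in control cells, none of them at 0, against 7778 and 9005 CPM in macrophage-like cells. The list holds Ly6c2, which read 458 CPM in macrophage-like cells and 247 CPM in the other cells, both libraries together. Thinned mature GA cells held a mean of 0.67 UMIs of Ly6c2. The sum is therefore not a measure of macrophage transcripts alone. C1qb, a complement component of tissue macrophages, read 6.9 and 12.9 CPM. Per UMI of C1qb there were 447 UMIs of Wfdc17 in mature GA cells and 14.4 in mature control cells, and 0.769 and 0.525 in macrophage-like cells. In the 1092 GA and 436 control cells with no UMI of C1qa, C1qb, Apoe, Csf1r or Mrc1, a set of markers chosen after the data had been seen, Wfdc17 read 2846 and 187 CPM, a log2 ratio of 3.93. That set leaves out the monocyte markers Ly6c2, Ccr2 and F13a1. These values come from the neutrophils for which Wfdc17 was chosen and add no support to that difference. The part of macrophage or monocyte transcripts in them was not tested.

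Wfdc18 was read almost wholly beside Wfdc17. In mature cells of the GA library it was counted 78 times in 71 cells, 70 of which also held Wfdc17, whereas 87.2% of all those cells held Wfdc17. In mature control cells it was counted 2 times, in cells that both held Wfdc17. No UMI was read in dividing precursors or immature cells of either library. Per 1000 UMIs of Wfdc17 there were 1.83 (1.45–2.29) of Wfdc18 in mature GA cells and 2.14 (0.259–7.72) in mature control cells.

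In macrophage-like cells the same figure was 3.98 (3.35–4.68) in the GA library and 3.29 (2.79–3.86) in the control library, above that of mature GA neutrophils by more than counting error. All 127 GA macrophage-like cells with Wfdc18 also held Wfdc17, beside 94.0% of all GA macrophage-like cells. In granulocyte-monocyte progenitor-like cells of the GA library it was 28.0 (16.0–45.4), from 16 and 572 UMIs. Because the last exons of Wfdc17 and Wfdc18 are alike, how far reads of one were given to the other could not be seen in the counts and was not tested.

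Macrophages were the main source of Wfdc17 in the control library, with 90.3% of its UMIs. Over all macrophage-like cells the libraries were close, at a log2 ratio of 0.027 (0.0072–0.047) beside a median gene of 0.11. This value moved with the clustering and scaling, from −0.080 to 0.42 over 13 alternatives. Wfdc17 was detected in 94.0% of GA and 93.3% of control cells, with medians of 13 and 12 UMIs per cell. Within each of the 3 clusters of this class the GA library was higher. The cluster led by C1qa, Apoe and Mrc1, genes of resident-type macrophages, read 2117 and 1588 CPM, a ratio of 0.41 (0.38–0.45). The cluster led by Cd36 and Pf4, in which C1qb, C1qa and Arg1 came next, read 1492 and 1085 CPM, at 0.46 (0.43–0.49).

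The third, led by the monocyte genes Ccr2, F13a1 and Vcan, read 459 and 412 CPM, at 0.16 (0.09–0.23). Chil3 and the azurophil granule gene Prtn3 were also among its leading genes. This cluster of lowest level held 527 of 1280 GA cells and 389 of 1767 control cells, so the ratio over all macrophage-like cells joins clusters in different shares. In dendritic-like cells Wfdc17 read 513 and 483 CPM, a ratio of 0.086 (−0.0013 to 0.172). C1qb was among the leading genes of that cluster, at 1115 and 757 CPM, and the 11 macrophage or monocyte markers summed to 4223 and 2995 CPM there, none at 0. The part of macrophage transcripts in its Wfdc17 level was not tested. Granulocyte-monocyte progenitor-like cells read 25.6 and 18.2 CPM of Wfdc17, at 0.49 (0.22–0.77), and neither Wfdc17 nor Wfdc21 was beyond 2-fold there, where 1.69% of all genes were. Wfdc18 in macrophage-like cells, with 144 and 153 UMIs, had a ratio of 0.30 (−0.04 to 0.64) and was not separated between the libraries at this depth.

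Wfdc21 had higher ratios in macrophage-like cells and in cells of the mesenchymal lineage than in neutrophil-like cells, and lower ones in progenitor-like cells, at 0.093 (0.042–0.145). Macrophage-like cells read 74.3 CPM (71.3–77.5) in the GA library and 9.6 CPM (8.6–10.6) in the control library, a log2 ratio of 2.96 (2.80–3.12). Cells of the mesenchymal lineage, with the osteoblast-like cluster counted among them, read 26.3 CPM (24.8–27.8) and 2.3 CPM (2.0–2.6), a ratio of 3.52 (3.32–3.73). Among genes with at least 200 UMIs it stood 9th of 10411 and 2nd of 12831. Of the 3 members, each with at least 200 UMIs in macrophage-like cells, 1 was beyond 2-fold, where 5.58% of all genes were, and 4.44% above it in the GA library. Of the 2 measured in cells of the mesenchymal lineage both were, where 3.15% of all genes were, and 1.71% above it in the GA library, with Wfdc17 at 8.3 and 3.8 CPM and a ratio of 1.11 (0.91–1.32). Those Wfdc17 levels lay below the 10.4 and 8.5 CPM of B-like cells. The mesenchymal and osteoblast-like clusters were deeper, at medians from 38849 to 70726 UMIs against 4727.5 to 13349 in the B-like clusters. CPM is therefore not a like measure of stray transcripts in the 2 classes, and background was not tested.

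Neutrophil genes moved with it in those cells, as did progenitor genes in macrophage-like cells. The calprotectin subunits S100a8 and S100a9, abundant neutrophil transcripts, had ratios of 3.14 and 3.02 in macrophage-like cells, and Lcn2, a granule protein that binds siderophores, was first in order at 3.53. The progenitor markers Mpo, Prtn3, Ctsg and Elane had ratios of 3.27, 3.15, 3.01 and 2.85 there. In the GA library Prtn3 read 207 CPM in macrophage-like cells and 81.3 CPM in neutrophil-like cells, and Ctsg read 40.9 and 5.6 CPM. All 11 neutrophil markers were read in macrophage-like cells, and they summed to 3422 CPM in the GA library and 506 CPM in the control library. In cells of the mesenchymal lineage they summed to 1795 and 250 CPM. Per 1000 UMIs of S100a8 there were 43.3 of Wfdc21 in GA macrophage-like cells and 49.3 in control ones, beside 35.6 and 31.3 in neutrophil-like cells. Taken relative to S100a8, a scaling chosen after the data had been seen, the log2 ratio of Wfdc21 was −0.19 in macrophage-like cells and 0.53 in cells of the mesenchymal lineage. The part of transcripts from neutrophils or progenitors in these levels was not tested.

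After thinning, a Wfdc21 UMI was held by 9.31% (7.77–11.04) of GA macrophage-like cells and 1.36% (0.872–2.01) of control ones. B-like cells stood at 4.97% (3.36–7.07) and 2.26% (1.21–3.84), below the GA macrophages and not below the control ones. The macrophage clusters were deeper, at medians from 16035 to 24086 UMIs against 4727.5 to 13349 in the B-like clusters. Thinning therefore does not set their stray transcripts equal, and background was not tested. The difference between the libraries was not even over the macrophage clusters. The monocyte-led cluster, which had Chil3 and Prtn3 among its leading genes, read 128 and 6.8 CPM, from 1666 and 39 UMIs. The C1qa-led cluster read 46.1 and 2.9 CPM, and the Cd36-led cluster 27.1 and 15.02 CPM. In cells of the mesenchymal lineage the thinned shares were 3.00% (1.97–4.36) and 0.278% (0.0903–0.647), both no higher than in B-like cells, which were again shallower. The 5 cells with the most Wfdc21 held 39.8% of the UMIs there in the GA library and 32.7% in the control library.

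**Figure D4:**
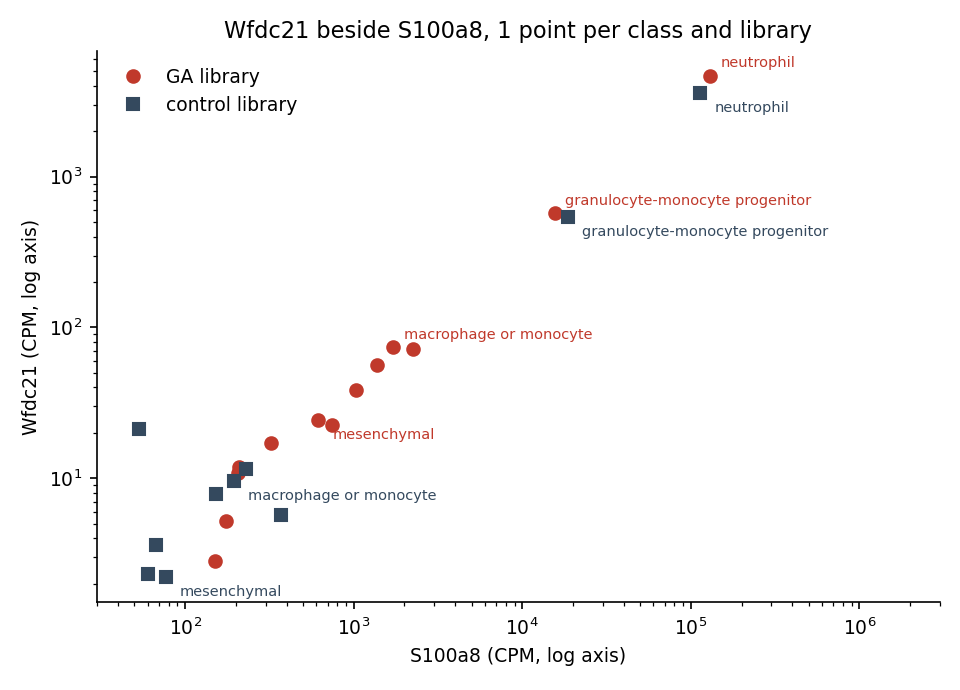
Wfdc21 against S100a8 (both in CPM, log axes), with 1 point for each class and library that held more than 3 Wfdc21 UMIs, the GA library as red circles and the control library as dark squares. Macrophage-like cells lie at 74.3 CPM of Wfdc21 and 1719 CPM of S100a8 in the GA library and at 9.6 and 194 CPM in the control library, while neutrophil-like cells lie at the upper right in both.

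Few cells lay behind the values in the small endothelial-like and erythroid-like classes. In endothelial-like cells, Wfdc17 was read with 38 UMIs in 55 GA cells and 3 in 46 control cells, and Wfdc21 with 71 and 3. The 5 cells with the most held 89.5% and 90.1% of those GA UMIs, and the neutrophil markers summed to 5230.5 CPM in the GA library and 208 CPM in the control library. Erythroid-like cells had Wfdc17 the other way round, with 3 UMIs in 54 GA cells and 31 in 86 control cells. There 5 cells held 90.3% of the control UMIs, and C1qb read 2.8 and 63.7 CPM.

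The genes beside the members on chromosome 11 had ratios near or below 0. Of the 16 nearest genes, 8 on each side, 8 had at least 200 UMIs in mature neutrophil-like cells, and their log2 ratios ran from −1.02 to 0.076, with a median of −0.36. None was above 2-fold in the GA library and 1, Ccl9, was more than 2-fold lower. The chemokines Ccl3 and Ccl4, which call in other leukocytes and lie 56.1 and 41.4 kb below Wfdc17, had ratios of −0.95 and −0.37. Ccl6, the most abundant of these neighbours, read 1591 and 2051 CPM. Heatr6, 49.7 kb above Wfdc17 and next to Wfdc21, stood at 0.028 (−0.39 to 0.46) from 183 and 66 UMIs. In macrophage-like cells the 11 neighbours measured lay between −0.31 and 0.33.

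**Figure D5:**
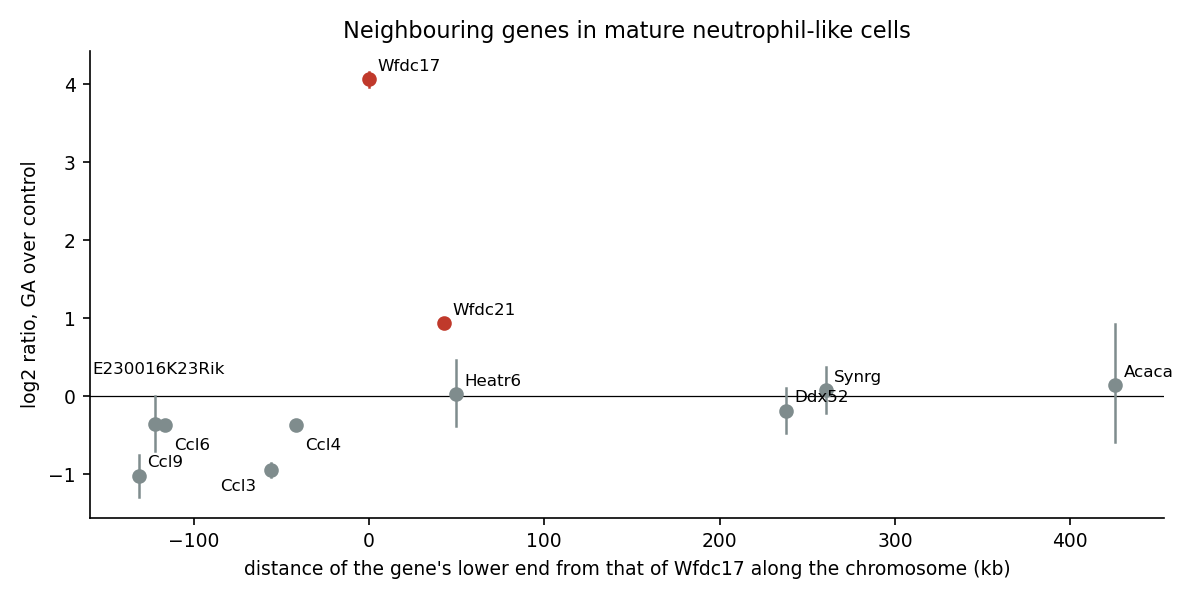
Log2 ratio of GA over control in mature neutrophil-like cells (y axis) for genes with more than 3 UMIs in each library, by distance from Wfdc17 along the chromosome (x axis, kb), with exact 95% intervals as lines, members in red and neighbours in grey. Wfdc17 lies at 4.06 and Wfdc21 at 0.94, while the neighbours lie between −1.02 and 0.14, the latter Acaca with 63 and 21 UMIs. Wfdc18, with 2 control UMIs, is not drawn.

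Few other WFDC genes were read. Of the 23 on the list, 19 had a UMI in any cell and 6 had at least 200. Slpi, the inhibitor of neutrophil elastase, was the only other one measured in neutrophil-like cells, at 1467 and 1334 CPM and a log2 ratio of 0.14 (0.11–0.16). In mature cells it read 2552 and 2281 CPM, at 0.16 (0.13–0.19). In macrophage-like cells Slpi read 192 and 83.5 CPM, at 1.20 (1.14–1.27). Wfdc1, with 223 and 507 UMIs in all cells, and Wfikkn2, with 103 and 175, were lower in the GA library over all cells, at −0.97 and −0.55.

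Of the list of protease inhibitors, which holds Slpi, 10 were measured in mature cells. Of these 0 were beyond 2-fold, near the 1.66% of all genes that were, and the median of 0.055 stood beside −0.14 for all genes. Stfa2l1, a stefin, read 942 and 945 CPM, and Timp2, an inhibitor of metalloproteinases, read 382 and 348 CPM. Cstb, another inhibitor of cysteine proteases, was lower in the GA library at −0.59 (−0.68 to −0.49). Of the list of neutrophil serine proteases, none reached 200 UMIs in mature cells. Below that count, Elane had 84 GA and 7 control UMIs there, a log2 ratio of 2.14 (1.04–3.50). Prtn3 had 98 and 5, at 2.85 (1.58–4.50), and Ctsg had 58 and 5, at 2.09 (0.79–3.77). Prss57 had 92 and 27, at 0.33 (−0.31 to 1.00), and Gzmb had 2 and 0. The levels in mature cells were 6.1 and 1.4 CPM for Elane, 7.2 and 0.99 CPM for Prtn3, and 4.2 and 0.99 CPM for Ctsg. Over all cells these 3 genes had ratios of 1.54, 2.19 and 2.17. The part of progenitor transcripts in their low levels was not tested. In all neutrophil-like cells 4 of the list reached 200 UMIs, with a median of 0.17 and 0 beyond 2-fold, where 1.12% of all genes were.

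Among all genes in mature cells, 1.66% were beyond 2-fold, 0.528% were above it in the GA library, and the median was −0.14. Granule and antimicrobial proteins had a median of 0.24 over 13 genes in mature cells, with 0 beyond 2-fold. Lcn2 was the highest at 0.91 (0.87–0.94), close to Wfdc21, and Camp, the cathelicidin, was the lowest at −0.67 (−0.74 to −0.60). Induced inflammatory genes had a median of −0.39 over 14 genes, with 0 above 2-fold and 1 below, Tnf at −1.20 (−1.33 to −1.06). Il1b was at 0.038 (0.019–0.057). Of the list of genes known from granulocytic myeloid-derived suppressor cells, which holds Wfdc17 itself, 11 others were measured and 1 was above 2-fold, Ifitm1, at 3162 and 527 CPM and a ratio of 2.58 (2.53–2.64). The median of those 11 was 0.038.

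The genes whose levels ran most like each member were sought over 32 sums of a class or stage in 1 library, by Pearson correlation of log2(CPM + 1) among 15312 genes. These points share library, depth and clustering, and the values are a description. For Wfdc17 the nearest were Sirpb1c (0.91), a signal-regulatory receptor of myeloid cells, E230029C05Rik (0.90), Wfdc18 (0.90), the G protein-coupled receptor Gpr35 (0.89) and the bacterial lipoprotein receptor Tlr1 (0.86). For Wfdc18 they were Wfdc17, Tlr1 (0.88), Il1a (0.82), Sirpb1a (0.80) and Sirpb1c (0.80). For Wfdc21 they were S100a9 (0.98), S100a8 (0.98), the lipolysis inhibitor G0s2 (0.97), the neutrophil surface protein Cd177 (0.97) and the kinase Mapk13 (0.96). By rank, none of the 5 genes named for Wfdc18 stayed among its nearest 5, and the value for Wfdc17 and Wfdc18 was 0.59. Wfdc17 and Wfdc21 were themselves little alike, at 0.22.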

How the data were processed

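The members and the gene lists were chosen with earlier results of these data known. The authors deposited 1 matrix of raw counts (UMIs per gene and barcode) for each library, made with Cell Ranger (7.0.1 in the file headers) on mm10. Barcodes with 500 to 140000 UMIs, 200 to 9500 genes and up to 15% mitochondrial UMIs were kept. Scrublet marked 0 and 37 barcodes (0.457%), so barcodes with the top scores, 0.8% for each 1000 barcodes, were left out in its place (653 GA and 524 control). Cells were clustered with scanpy 1.11.5 on 2000 variable genes without the members (Pearson residuals, 50 principal components, Harmony, Leiden resolution 1). Clusters were named from marker lists, needing at least 3 markers 2-fold above the median cluster in 10% of cells. The naming thresholds were chosen after the clusters had been looked at.

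UMIs were summed by class and library, and log2 ratios were given exact conditional binomial intervals. Where nothing was read, 3 UMIs set the floor. The steps were tested on simulated counts. Genes named are the members, the fixed lists, the 5 highest and 5 lowest ratios in neutrophil-like cells, 8 neighbours on each side and the 5 genes most alike. Coding sequences came from GENCODE vM21. The total depth was 182949385 and 214993030 UMIs. The study used PyDESeq2 on pseudobulk sums, which was not run because each group is 1 library.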

Additional observations from a re-analysis of the deposited data

Results flagged for a closer look

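Wfdc17 in erythroid-like cells had the opposite direction to that in neutrophil-like cells, with a log2 ratio of −2.77 (−5.12 to −1.09) against 4.04. It rests on 3 GA and 31 control UMIs, and 5 control cells held 90.3% of the latter. C1qb, a macrophage gene, read 2.8 CPM in the GA cells and 63.7 CPM in the control cells, and its part in the result was not tested. The difference between the classes was not tested either, since each group is 1 library.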

How the results depend on the processing

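All 14 alternatives left Wfdc17 beyond 2-fold in neutrophil-like cells, from 3.93 to 4.44. Values outside the counting interval were 4.44 with each cell named by its own marker score, 4.18 relative to the median gene, 3.93 as a mean over cells, 3.93 after thinning, 4.26 without the 5 cells of most UMIs and 4.23 with the B-like level subtracted. In mature cells the corresponding values were 4.31 by marker score, 4.20 relative to the median gene and 4.29 without the top 5 cells. The value was 3.93 in mature cells with no UMI of C1qa, C1qb, Apoe, Csf1r or Mrc1, and other macrophage markers were not screened. Wfdc18 kept its direction in 11 of 11, from 3.67 to 4.21.

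Wfdc21 in neutrophil-like cells stayed below 2-fold, with 0.47 at Leiden resolution 0.5, 0.31 by marker score, 0.52 relative to the median gene, 0.56 as a mean over cells and 0.52 after thinning. In the mesenchymal lineage it was 2.84 with doublets kept, 3.31 as a mean over cells, 2.68 after thinning and 0.53 relative to S100a8. In macrophage-like cells it reversed to −0.19 relative to S100a8. The cause was not tested.

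Wfdc17 in macrophage-like cells had the sign of its reported value under 12 of 13 alternatives and was beyond 2-fold under none. It was 0.066 with doublets kept, 0.38 at a mitochondrial limit of 10%, 0.33 without batch correction, 0.42 and 0.24 at Leiden resolution 0.5 and 2, 0.26 with seed 2, 0.17 by marker score, −0.080 relative to the median gene, 0.18 as a mean over cells and 0.21 after thinning.

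The share of genes beyond 2-fold in neutrophil-like cells was 3.24% with at least 50 UMIs and 0.413% with at least 1000. Of 15 genes named as most alike, 5 remained by rank correlation, 2 for Wfdc17, 0 for Wfdc18 and 3 for Wfdc21. Subtracting the B-like level gave no value for Wfdc18 or for Wfdc21 in the mesenchymal lineage, nor did leaving out the top 5 cells for Wfdc18. Alternatives on macrophage UMIs, S100a8 and shared barcodes were chosen after seeing the data. No paired analysis was possible because each group is 1 library.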
